A study of Mus musculus with 6 samples.

Results

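The Zic and Irx families are 2 groups of transcription factor genes that pattern the early nervous system, and their expression was examined here in neural progenitor cells (NPCs) of mouse. The members were the rows of the authors' deposited table whose gene symbol was Zic1, Zic2, Zic4, Zic5, Irx1, Irx2, Irx3, Irx5 or Irx6, and all 9 were found among its 15095 genes. The RNA came from 3 libraries of Setd2-KO and 3 libraries of wild-type NPCs, both derived from the same embryonic stem cell background and collected on day 8, after 4 days of aggregate culture without and 4 days with 5 uM retinoic acid. SETD2 is the methyltransferase that places H3K36me3 on the bodies of transcribed genes, and the knockout removes it from the stem cell stage on. The sample titles name NPCs, whereas the field for the cell type names the stem cells of origin. It is stated nowhere in the labels or the study's methods that replicate libraries were separate differentiations, or how many clones they stand for.

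The measure used throughout is the authors' average log2 CPM (CPM, reads of the gene scaled to a common library size) of each gene over all 6 libraries. It is 1 value a gene, so it describes the NPC cultures of both genotypes together. It carries no SD, library depths are unknown, and no difference between Setd2-KO and wild-type NPCs is given for any member. Because a longer transcript gathers more reads, levels of different genes were compared per kilobase (kb) of the canonical transcript in GENCODE vM39. A percentile is the share of the 15066 genes with such a length that lay lower. All genes had passed the authors' filter on low counts, so a low percentile is low among expressed genes.

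ZIC proteins carry tandem C2H2 zinc fingers related to those of the GLI factors, the transcriptional effectors of Hedgehog signalling. They are best known from the dorsal neural tube, the neural crest and the cerebellum. IRX proteins are homeodomain factors of the TALE class, named after the Iroquois genes of Drosophila, and subdivide the neural plate along both of its axes. In vertebrate genomes both families lie in clusters: most Zic genes as divergent pairs, the Irx genes in groups that are spread over long stretches with few other genes.

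The Irx genes covered the wider range and held the top of the order. Irx3, which marks intermediate and dorsal progenitors of the spinal cord and in chick opposes the motor neuron factor Olig2, was the highest member, with an average log2 CPM of 8.14 and 6.68 log2 CPM per kb. That placed it at rank 554 of the 15066 genes, or the 96.3rd percentile. Irx5, which is known for its roles in retinal bipolar cells and in the heart, followed with an average log2 CPM of 6.50 and 5.14 log2 CPM per kb (86.3rd percentile). Irx1 had an average log2 CPM of 5.36 and 4.11 log2 CPM per kb (72.2nd percentile). Irx2 had an average log2 CPM of 4.94 and 3.53 log2 CPM per kb (62.7th percentile). Irx6, another gene of retinal bipolar cells, stood far below these 4 genes, with an average log2 CPM of 2.13 and 0.38 log2 CPM per kb (24.5th percentile). On the linear scale the 5 Irx genes summed to 168 CPM per kb, of which Irx3 made up 61.1%, Irx5 20.9%, Irx1 10.3%, Irx2 6.87% and Irx6 0.773%.

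Per kb of canonical transcript, the 4 Zic genes lay below the median of the table, though Zic1 and Zic2 did not under every measure of length. Zic2, whose human counterpart is a holoprosencephaly gene, had an average log2 CPM of 4.28 and 2.49 log2 CPM per kb (46.0th percentile). Zic1, required for normal growth of the cerebellum in mouse, had an average log2 CPM of 4.75 and 2.26 log2 CPM per kb (42.6th percentile). Before division by length Zic1 was thus listed above Zic2, and per kb of its longer transcript it came below it. Zic5, which contributes to neural crest formation and neural tube closure, had an average log2 CPM of 3.08 and 0.82 log2 CPM per kb (27.8th percentile). Zic4, the lowest of all 9 members, had an average log2 CPM of 1.11 and -1.23 log2 CPM per kb (13.5th percentile). The 4 Zic genes summed to 12.6 CPM per kb, of which Zic2 made up 44.6%, Zic1 38.0%, Zic5 14.0% and Zic4 3.39%.

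**Figure D1:**
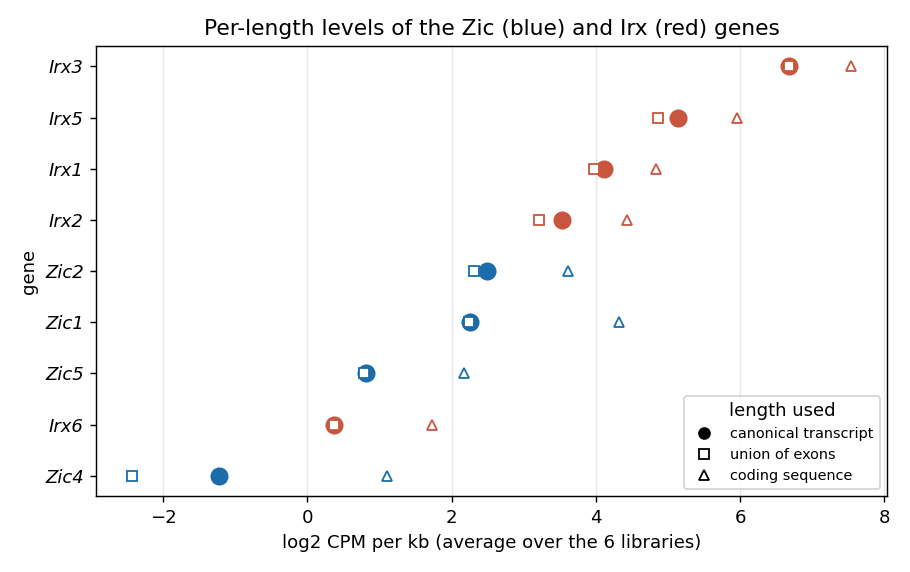
Average level over the 6 libraries (x axis, log2 CPM per kb) of the 9 members (y axis); filled circles use the length of the canonical transcript, open squares the union of all exons and open triangles the coding sequence. Irx3 was highest at 6.68 and Zic4 lowest at -1.23 per kb of canonical transcript, and the only neighbours that change place between the 3 lengths are Zic1 and Zic2.

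In order, the levels per kb ran Irx3, Irx5, Irx1, Irx2, Zic2, Zic1, Zic5, Irx6 and Zic4. The steps between neighbours in this order were smallest from Zic2 to Zic1, by 0.23 on the log2 scale (1.17-fold), and from Zic5 to Irx6, by 0.44 (1.36-fold). The step from Irx1 to Irx2 was 0.58 (1.50-fold). Those from Irx5 to Irx1 and from Irx2 to Zic2 were 1.02 and 1.04 (2.03-fold and 2.05-fold). The steps from Zic1 to Zic5, from Irx3 to Irx5 and from Irx6 to Zic4 were the largest, with 1.44, 1.54 and 1.60 (2.72-fold, 2.92-fold and 3.04-fold). With no value per library, whether any of these neighbours differ beyond the spread between libraries was not tested. The order was the same with the union of exons as length. With the coding length, Zic1 (4.32 log2 CPM per kb) came before Zic2 (3.62), so the order of this pair depends on how its untranslated sequence is counted.

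The median percentile was 72.2 for the 5 Irx genes and 35.2 for the 4 Zic genes, and 4 Irx genes but 0 Zic genes lay above the median of the table by this measure. With the union of exons, Zic1 and Zic2 lay at percentiles of 55.9 and 57.1, and Zic1 lay at a percentile of 54.1 with the coding length and of 52.9 without division by length, all above the median. The median of all genes was 2.77 log2 CPM per kb, with a range from -8.00 to 13.5. The families overlapped: Irx6 lay below Zic2, Zic1 and Zic5.

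**Figure D2:**
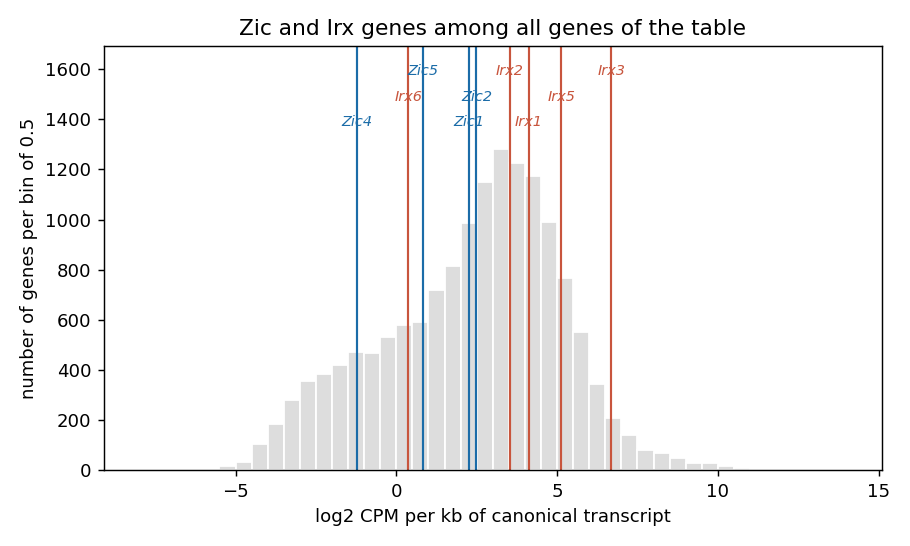
Number of genes (y axis) in bins of 0.5 log2 CPM per kb (x axis) for the 15066 genes with a length, with the Zic genes marked by blue and the Irx genes by red lines. The 4 highest members are Irx genes, the Zic genes lie below the median of 2.77 with this length, and Irx6 sits among the Zic genes at 0.38.

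Members that are next to each other in the genome differed in level by between 0.58 (Irx1 and Irx2) and 4.76 (Irx5 and Irx6) on the log2 scale. Zic1 (chromosome 9, 91240111 to 91247863, minus strand, 3 exons) and Zic4 (chromosome 9, 91244149 to 91271402, plus strand, 5 exons; all positions in GRCm39) are transcribed away from each other from canonical start sites 2236 bases apart. Zic1 lay 3.49 above Zic4 per kb (11.2-fold), and made up 91.8% of the pair's summed level. The annotated spans of the pair overlap by 3715 bases on opposite strands. The kit kept strand, but the sources used here do not say if counting respected it, so some reads of this stretch could have been given to either gene. Zic4 is also the member with the most annotated transcripts, 23, and its union of exons is 11601 bases, against 5057 bases in the canonical transcript.

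The RefSeq promoters of this pair are shown, as no other cluster had a sequence for more than 1 of its members. The RefSeq start sites of Zic1 and Zic4 lie farther apart than their canonical ones. The stretches are thus not both next to the canonical start sites, and their CpG counts describe the RefSeq start sites only. The 250 bases before each RefSeq start site are given 5′ to 3′ on the gene's own strand, with CpG dinucleotides in capitals (GRCm38.p6, chr9:91365769-91366018, minus strand, for Zic1 and chr9:91368722-91368971, plus strand, for Zic4).
Zic1: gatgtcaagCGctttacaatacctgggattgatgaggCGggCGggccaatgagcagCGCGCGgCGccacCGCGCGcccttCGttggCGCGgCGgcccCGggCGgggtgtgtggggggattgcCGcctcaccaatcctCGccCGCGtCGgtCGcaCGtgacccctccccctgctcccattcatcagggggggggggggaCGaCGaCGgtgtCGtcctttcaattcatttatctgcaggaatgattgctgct
Zic4: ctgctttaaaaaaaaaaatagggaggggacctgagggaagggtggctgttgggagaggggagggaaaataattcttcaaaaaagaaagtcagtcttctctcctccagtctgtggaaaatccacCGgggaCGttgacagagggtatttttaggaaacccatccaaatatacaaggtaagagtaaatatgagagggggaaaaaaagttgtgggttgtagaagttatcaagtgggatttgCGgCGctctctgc
The stretch of Zic1 holds 27 CpG dinucleotides and that of Zic4 holds 4.

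Zic2 (chromosome 14, 122711827 to 122717264, plus strand, 3 exons) and Zic5 (chromosome 14, 122694190 to 122703089, minus strand, 2 exons) form the second divergent pair, with start sites 8738 bases apart. Zic2 lay 1.67 above Zic5 per kb (3.19-fold). The long noncoding RNA 2610035F20Rik overlaps Zic2 by 1917 bases on the opposite strand and was listed with -0.68 log2 CPM per kb. In both pairs the higher gene, Zic1 or Zic2, was thus several times above its partner.

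Irx1 (chromosome 13, 72106040 to 72111848, minus strand, 4 exons) and Irx2 (chromosome 13, 72776906 to 72782317, plus strand, 5 exons) lie with start sites 665 kb apart. Their levels were the closest of any cluster, with Irx1 0.58 above Irx2 (1.50-fold). Irx4, the ventricle-specific Irx gene of the heart, belongs to the same cluster but was not among the members. It was listed with an average log2 CPM of 0.62 and -0.76 log2 CPM per kb (16.4th percentile), and so below all 5 Irx members.

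Irx3 (chromosome 8, 92525153 to 92528695, minus strand, 4 exons), Irx5 (chromosome 8, 93084253 to 93102914, plus strand, 3 exons) and Irx6 (chromosome 8, 93400916 to 93407584, plus strand, 6 exons) share a cluster of 882 kb. It held both the highest and the lowest Irx member. Irx3 lay 1.54 above Irx5 (2.92-fold) and 6.30 above Irx6 (79.0-fold), and Irx5 lay 4.76 above Irx6 (27.1-fold). Irx6 made up 0.934% of the summed level of this cluster. Levels were thus lower with each step along the cluster, in the order of the genes. In each Irx cluster, the gene at the highest coordinates, Irx4 or Irx6, was the lowest. This was described after the values were seen, and a trend with position was not tested. Crnde, a long noncoding RNA whose annotated span overlaps that of Irx5 by 84 bases on the opposite strand, was listed with 4.27 log2 CPM per kb, and Irx5 lay 0.86 above it. Irx3os and Gm45505, noncoding genes annotated on the opposite strand of Irx3 and Irx6, had no row in the table. Whether their reads were kept apart from those of Irx3 and Irx6 was therefore not tested. The same holds for annotated genes without a row on the opposite strand of Zic4, Zic5 and Irx2.

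The Irx3 promoter is shown as that of the most highly expressed member. It is the stretch of 250 bases before the RefSeq start site (GRCm38.p6, chr8:91801655-91801904, minus strand), again with CpG dinucleotides in capitals, of which it holds 13.
Irx3: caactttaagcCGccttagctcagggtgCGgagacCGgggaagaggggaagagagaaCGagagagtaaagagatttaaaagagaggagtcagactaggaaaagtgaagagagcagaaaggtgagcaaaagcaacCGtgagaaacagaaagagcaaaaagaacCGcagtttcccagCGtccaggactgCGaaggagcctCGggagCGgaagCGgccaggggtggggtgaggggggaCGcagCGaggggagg

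**Figure D3:**
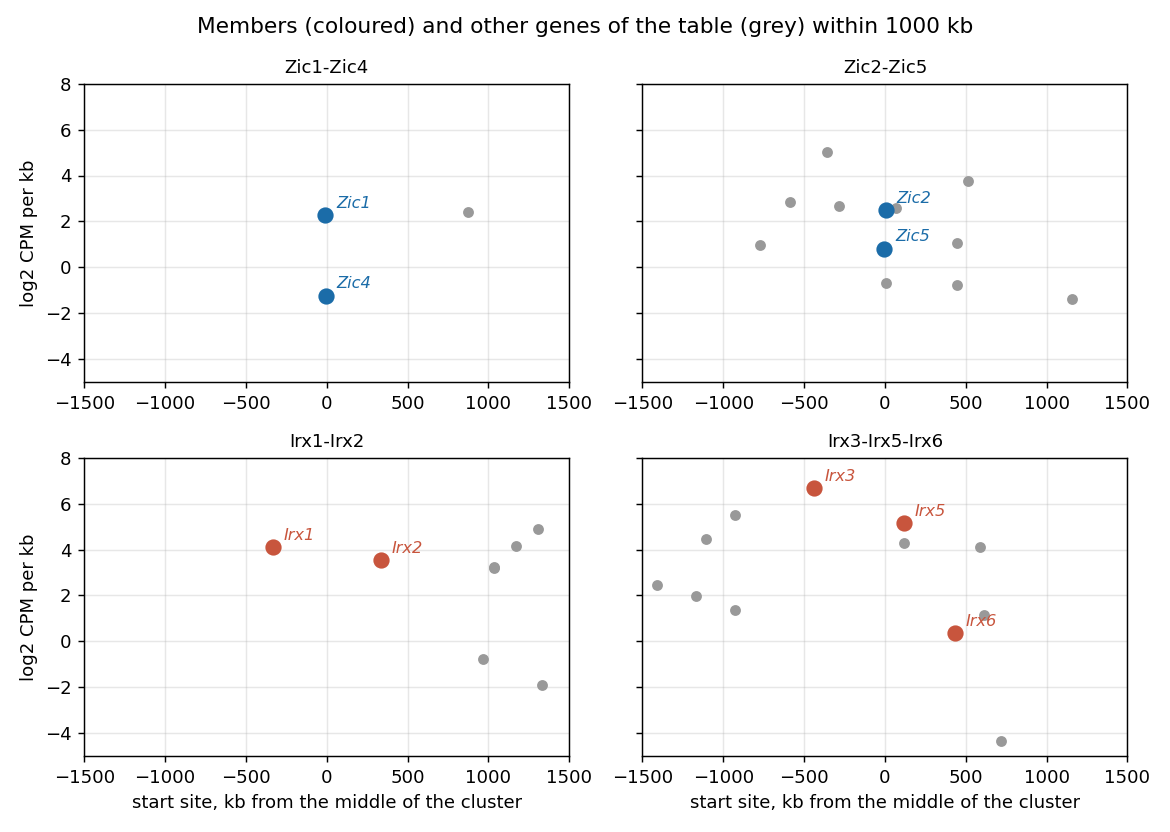
Level (y axis, log2 CPM per kb) against the distance of the start site from the middle of each cluster (x axis, kb) for the members (coloured) and the other genes of the table within 1000 kb (grey). The Irx1-Irx2 and Zic1-Zic4 clusters stand alone within 500 kb, and Irx3 lies above every grey point of its own cluster.

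The surroundings of the clusters differed in how many expressed genes they held. Within 500 kb of the Zic1-Zic4 pair and of the Irx1-Irx2 pair, 0 other genes of the table and 0 annotated protein-coding genes were found. The nearest in the table within 1000 kb were Plscr1, a phospholipid scramblase 860 kb beyond Zic4, with 2.41 log2 CPM per kb, and Irx4, 625 kb beyond Irx2. Around Zic2 and Zic5, 8 genes of the table lay within 500 kb, with a median of 2.64 log2 CPM per kb (1.84 for the 10 genes within 1000 kb). The nearest on each side were Clybl (2.68), an enzyme of mitochondrial citramalyl-CoA metabolism, and Pcca (2.60), a subunit of propionyl-CoA carboxylase, both slightly above Zic2. Around the Irx3 cluster, 6 genes of the table lay within 500 kb, with a median of 2.74 (4.19 for the 4 genes within 200 kb). The nearest on each side were Fto (5.48), an RNA demethylase, and Mmp2 (4.11), a matrix metalloprotease. Irx3 was higher than all 6 of these genes, Irx5 was higher than each of them but Fto, and Irx6 was higher than only 1 of them, Slc6a2 (-4.35).

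RefSeq promoter sequences of 300 bases (250 before and 50 after the start site) matched 5 of the 9 members, Zic1, Zic4, Zic5, Irx2 and Irx3, of 32851 promoters in all. A RefSeq start site can differ from the canonical one, as in the pair of Zic1 and Zic4. Their GC content ranged from 46.0% in Zic4 to 69.0% in Irx2, beside a median of 52.7% for all promoters. The ratio of observed to expected CpG dinucleotides ranged from 0.51 in Zic5 to 0.97 in Zic1, and all 5 lay above the median of 0.38. Zic1 was at the 92.3rd percentile of this ratio, Irx3 at the 74.9th, Irx2 at the 72.9th, Zic4 at the 60.8th and Zic5 at the 58.7th. The order of CpG content did not follow the order of levels, since Irx3, the highest member, came after Zic1.

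The 5 promoters were searched on both strands for 6 motifs. The retinoic acid receptor half-site AGGTCA was found once, in Zic5, starting 175 bases before the start site, and 16.3% of all promoters hold it. The DR5 retinoic acid response element, a direct repeat of that half-site with a spacer, occurred in 0 of the 5 and in 0.00913% of all promoters. ACANNTGT, a site described for Iroquois proteins of Drosophila, occurred in 0 of the 5, beside 7.38% of all promoters. CAGCAGG, found in ZIC motifs, occurred in 0 of the 5 (10.5% of all), as did the TATA sequence TATAAA (13.6% of all) and the GLI motif GACCACCCA (0.253% of all). A match in these letters is a description and does not show binding.

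The label of the cultures was checked against marker genes. Of 8 neural progenitor markers, Sox1 was not found among the genes of the table. The other 7 lay above the median of the table, with a median of 6.45 log2 CPM per kb. So did all 7 neuronal markers (median 5.73). Markers of other cells had lower medians, but all except the mesoderm marker Mesp1 had a row. The medians were 0.49 for embryonic stem cells (6 genes) and 1.88 for mesoderm (5 of 6 listed genes). They were 2.48 for endoderm (5 genes) and 1.91 for neural crest (6 genes). Of these, 2 endoderm markers, Apoa1 (3.54) and Sox17 (3.18), and 1 neural crest marker, Foxd3 (3.95), lay above the median of the table. For embryonic stem cells and mesoderm the count was 0. In bulk RNA, few cells with much of a transcript and many cells with little cannot be told apart, and the share of each cell type in the level of Zic or Irx genes was not tested.

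Set beside other patterning genes, Irx3 lay near the top of each list. Of 12 genes of the ventral and intermediate neural tube, only Dbx1 (7.03 log2 CPM per kb), a factor of intermediate progenitors, lay above Irx3 per kb. Without division by length, Pax6 (average log2 CPM 8.24) also lay above Irx3 (8.14). Of 17 genes of the dorsal neural tube and roof plate that had a row, 0 lay above Irx3, and their median was 1.87, beside 1.54 for the 4 Zic genes. This nearness was not particular to the dorsal list, since the medians for mesoderm (1.88), neural crest (1.91) and the ventral and intermediate list (2.13) were similar. Of 26 listed genes of anterior-posterior patterning, 23 had a row, and 4 of these lay above Irx3. These lists are given side by side as descriptions, with no test of a difference.

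**Figure D4:**
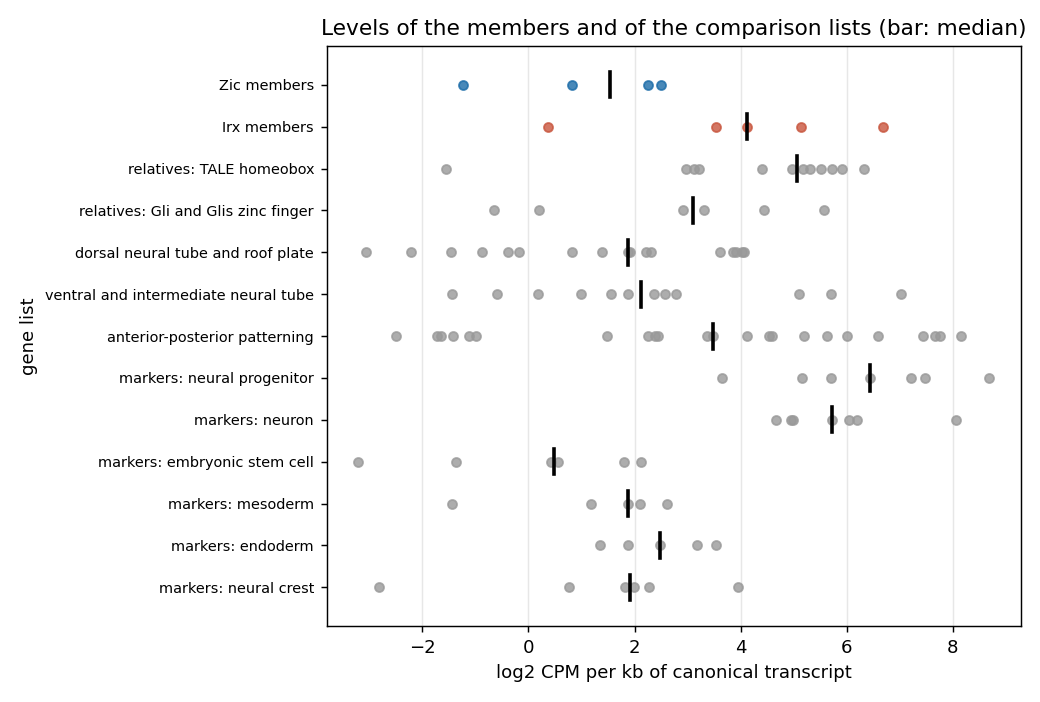
Levels (x axis, log2 CPM per kb of canonical transcript) of the Zic members (blue), the Irx members (red) and the comparison lists (grey), 1 list a line (y axis); each point is 1 gene and the black bar is the median. The medians were 1.54 for Zic and 4.11 for Irx, and both families lie within the range of the anterior-posterior list.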

How the data were processed

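PolyA RNA was sequenced as directional, single-end libraries from 3 Setd2-KO and 3 wild-type NPC samples. The only column used was the average log2 CPM that the authors deposited, 1 value a gene over all 6 libraries. Per the study's methods, the authors trimmed reads, aligned them with STAR to GRCm39, quantified genes with Salmon, removed low counts and applied TMM normalization in edgeR. The submitters' processing notes, by the authors, name Trim Galore, STAR, edgeR, NCBIM37 and mm9. The methods and the notes thus name different genome builds, and which annotation gave the counts is not known. Of 15066 gene IDs matched to GENCODE vM39 without their version, 15053 carried a lower version number in the table, all 9 members included, and 29 IDs were not matched. Coordinates and lengths are those of GENCODE vM39, not of the table. The lengths behind the levels per kb and the percentiles can therefore differ from those of the gene models that were counted. The authors' own comparison, in 4 columns of fold changes, p-values and FDR, was not used, and with no counts per library the genotypes were not compared.

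Levels were divided by the length of the canonical transcript in Python 3.11.15 with numpy 2.4.6 and pandas 2.3.3, and percentile ranks were tested on simulated data. Named were the members, Irx4, up to 3 genes of each comparison list with the highest average log2 CPM, and the nearest genes within 500 kb of each cluster. Slc6a2, Plscr1, Gli2, Glis1, Glis3, the overlapping genes, and Sox1 and Mesp1, which have no value, were named after the results were seen. The members and the 11 lists were chosen with earlier results of these data known. Alternatives changed the length, the filter, the gene set and the window. Protein sequences were not used here.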

Additional observations from a re-analysis of the deposited data

How the results depend on the processing

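No paired analysis was possible because the deposited values used here are pooled over the 6 libraries, so the planned genotype comparison was not run. For the same reason, alternatives in its normalization, filter, tool, left-out replicates or replicate blocks were not run. Depth per library is unknown, and the levels of Zic4 and Irx6 rest on the fewest reads per kb. The direction of all 6 differences within clusters held with either other length. With the union of exons they were 4.66 (Zic1 minus Zic4), 1.52 (Zic2 minus Zic5), 0.76 (Irx1 minus Irx2), 1.82 (Irx3 minus Irx5), 6.30 (Irx3 minus Irx6) and 4.48 (Irx5 minus Irx6), and with the coding length 3.22, 1.44, 0.41, 1.57, 5.80 and 4.23 in the same order. The median percentile of the Irx genes was 83.3 with the union of exons, 63.2 with the coding length, 63.5 without length, 68.3 when genes listed under 0 were left out and 71.8 with protein-coding genes only. That of the Zic genes was 45.5, 35.9, 39.4, 26.4 and 34.6 under the same settings. The percentile of Zic1 ranged from 34.7 to 55.9 and that of Zic2 from 38.5 to 57.1, so that both crossed the median of the table. The percentile of Zic4 ranged from 3.62 to 20.5 and that of Irx3 from 94.4 to 98.2. The median level of the genes beside Zic2-Zic5 was 2.60 within 200 kb and 1.84 within 1000 kb, and that beside Irx3-Irx5-Irx6 was 4.19 and 2.46. Within 200 kb, 0 genes of the table lay beside Zic1-Zic4 and Irx1-Irx2, and no median could be given for them at 200 or 500 kb.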

Other observations

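Of 12 TALE homeobox genes, the class to which IRX proteins belong, 11 lay above the median of the table, with a median of 5.07 log2 CPM per kb. They included the cofactors of HOX proteins Pbx2 (6.33), Meis2 (5.92) and Meis1 (5.51), and Irx3 (6.68) lay above all 12. Of the 6 Gli and Glis genes, zinc finger relatives of the Zic family, the median was 3.11, with Glis2 at 5.57, Gli1 at 4.44, Gli2 at 3.31 and Gli3 at 2.92, whereas Glis1 (0.20) and Glis3 (-0.65) lay below Zic1, Zic2 and Zic5.

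Of the other patterning lists, that of the dorsal neural tube and roof plate included the growth factor Bmp7 (4.03) and the paired-box gene Pax3 (3.85). The ventral and intermediate list had a median of 2.13 and included Pax6 (5.70), Dbx1 (7.03) and Prdm12 (5.11). The anterior-posterior list had a median of 3.48 and a range of -2.50 to 8.16 over the genes that had a row. It included the retinoic acid-degrading enzymes Cyp26b1 (7.45) and Cyp26a1 (8.16) and Hoxb4 (7.68). Values in parentheses are log2 CPM per kb over the 6 libraries.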
